A study of Danio rerio with 12 samples.

Results

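The egg coat of fish, the chorion, is built from zona pellucida proteins, and 7 of their genes are described here in zebrafish (Danio rerio): zp3a.1, zp3a.2, zp3b, zp3c, zp3e, zp3f.1 and zpax1. They were taken as a named list by gene symbol from a table of 22737 genes, and all 7 had counts in every one of the 12 libraries. A further 13 genes of the table have a symbol of the same family and serve as the comparison set. The study concerns Anp32e, a chaperone that removes the histone variant H2A.Z from chromatin, and it sequenced total RNA depleted of ribosomal RNA in 2 libraries from each of 6 groups. Of these, 4 groups are embryos at shield stage, 6 hours after fertilization: wild type of strain Tu, anp32e null of strain NHGRI, and maternal null and paternal null embryos from crosses labelled Tu X NHGRI. The fifth group is sphere-stage embryos, an earlier stage, labelled as injected with Anp32e protein, and the sixth bears the label anp32e null sperm. The labels give these last groups no strain. Genotype therefore cannot be told apart from strain among the shield embryos, nor injection from stage in the sphere embryos, for which there is no uninjected group. The labels name neither the number of embryos pooled nor separate clutches.

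Zona pellucida proteins share a module through which they polymerise into the extracellular coat around the egg. In zebrafish their genes are transcribed in the growing oocyte, whereas in some other fish, such as medaka, the liver of the female supplies part of the coat. Transcripts left in the egg at spawning are passed to the embryo with the other maternal RNA, most of which is degraded after the embryonic genome becomes active. The zp3 genes are relatives of mammalian ZP3, and zpax1 belongs to the zpax branch of the family.

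Library totals lay between 13.5 M and 47.7 M counts, and levels are given as CPM, counts per 1000000 counts of the library. CPM was not divided by transcript length, so levels are compared between libraries for 1 gene and not between genes. The targeted gene, anp32e, had 2285 and 3172 CPM in wild type, 81.2 and 80.5 in null, and 1212 to 1420.3 in the 4 libraries of the crosses. It had 979 and 986 CPM in the injected sphere embryos and 0.231 and 0.31 CPM in the libraries labelled sperm. In 4 groups the paired libraries agreed within or close to sampling noise (chi-square per degree of freedom between 1.05 in null and 1.17 in paternal null), whereas it was 95.2 for the wild-type pair and 42.9 for the pair labelled sperm. Differences were therefore tested with edgeR's quasi-likelihood test on every library and again with each near-identical pair summed to 1 sample, in which the spread among shield embryos came from the wild-type pair alone. A gene is said to have risen or fallen only where it passed a Benjamini-Hochberg adjusted p of 0.05 in the same direction in both fits; calls made with every library but not in both fits are worded as higher or lower. Nothing in the labels says that libraries of a group came from separate fish or clutches, so the p-values measure the spread between these libraries only. In bulk RNA, fewer cells of a type and less RNA per cell cannot be told apart.

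The libraries labelled sperm went against their label. A list named oocyte regulators, with 17 genes measured, summed to 9770.1 and 10794 CPM in them, while 6 measured genes of sperm and spermatids summed to 9.69 and 11.3 CPM. The lists were chosen with earlier results of these data known, so these sums are not independent support. Only 6 of the 12 listed sperm and spermatid genes were in the table, and they summed to 2.59 to 4.06 CPM in the shield libraries. Of the 5 tested, 3 (tekt1, dnah9 and ropn1l) rose against null shield embryos, where 30.7% of all genes were higher in both fits. The 10 shield embryo markers summed to 19.3 and 23.0 CPM in the libraries labelled sperm, against 4137 to 6886 CPM in the shield libraries. Markers of ovarian follicle cells (6 measured) summed to 9.04 and 8.16 CPM, against 0.756 to 1.48 CPM in the shield libraries. Of the 4 tested, 3 (gsdf, inha and hsd17b1) rose against null shield embryos, beside the same 30.7% of all genes. Their means in the libraries labelled sperm were at most 3.04 CPM. Markers of testis somatic cells (6 measured) summed to 128 and 123 CPM. Of these, cyp17a1 alone gave 125 and 119.8 CPM and the other 5 at most 1.82 CPM each. Both are called the libraries labelled sperm throughout, and comparisons with them are named as such. The comparison of injected with wild-type embryos was fitted on all 12 libraries, so the spread of the pair labelled sperm entered its tests.

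Coordinates of the 7 genes are on the build that the table heads Zv10. On chromosome 20, zp3a.2 (34084585 to 34086548) and zp3a.1 (34088921 to 34090819) are neighbours 2372 bases apart, and zpax1 lies farther along (43839943 to 43846622). On chromosome 2, zp3b (6341363 to 6346914) is far from zp3f.1 (38300318 to 38302421), whose neighbour at 663 bases is zp3f.2, a family gene outside the list. The other 2, zp3c on chromosome 1 (48869804 to 48876991) and zp3e on chromosome 3 (31745614 to 31747505), have no family gene of the table beside them. None of the 7 overlaps another gene of the table, and none has counts equal to those of another gene in every library. Reads of the close copies zp3a.1 and zp3a.2, and of zp3f.1 and zp3f.2, could have been divided between them by the counting, which is not given in the sources used here, so the split within each pair is uncertain.

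Transcripts of all 7 genes were most abundant in the libraries labelled sperm, next in the injected sphere embryos and least in the shield embryos. The summed level was 18754 and 23127 CPM in the libraries labelled sperm, or 1.88% of all counts in the first (95% Wilson interval 1.87 to 1.88%) and 2.31% in the second (2.31 to 2.32%); intervals cover counting error only. In the injected sphere embryos it was 976 and 970.3 CPM. In shield embryos it ran from 209 CPM in a null library to 283 CPM in a paternal null library. Wild type had 279 and 229, null 209 and 212, maternal null 256 and 255, and paternal null 280.1 and 283 CPM. The null pair lay below the other 6 libraries, the wild-type pair spanned the maternal null and the paternal null pair was just above it.

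**Figure D1:**
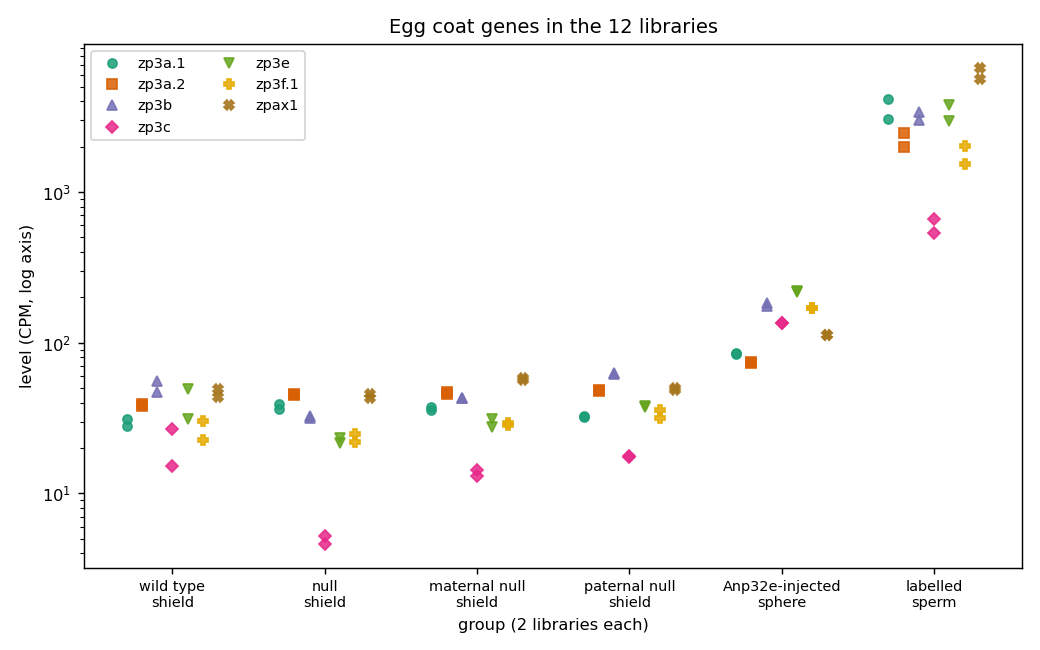
Level of each of the 7 egg coat genes in all 12 libraries, in CPM on a log axis; each point is a library and the libraries are grouped by condition. For every gene the libraries labelled sperm lie highest (for zpax1 5634 and 6679.6 CPM), the injected sphere embryos next (112 and 112 CPM) and the shield embryos lowest (42.8 to 58.7 CPM).

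In the libraries labelled sperm zpax1 reached 5634 and 6679.6 CPM, against 42.8 and 45.4 in null shield embryos. The neighbours zp3a.1 and zp3a.2 had 3074 and 4129 CPM and 1996 and 2452 CPM. For zp3b the values were 3006 and 3419 CPM, and for zp3e 2971 and 3776 CPM. Both libraries lay far above every embryo library for each gene, and the second was above the first by between 1.14 times (zp3b) and 1.34 times (zp3a.1). The values of zp3f.1 were 1541 and 2010.4 CPM. Those of zp3c were 532 and 659.9 CPM, and its excess over the injected embryos, 4.39-fold, was the smallest of the 7, against 55.1-fold for zpax1. Of all genes tested, 80.4% were called between the libraries labelled sperm and null shield embryos, 41.3% as higher and 30.7% as higher in both fits, and all 7 egg coat genes rose. Their log2 fold changes ran from 5.54 ± 0.17 (SE) for zp3a.2 (adjusted p = 5.4e-10, edgeR) to 7.16 ± 0.22 for zp3e (adjusted p = 5.9e-10), with a median of 6.57 where the median of all genes was 0.06. In the fit of 1 sample per near-identical pair the adjusted p of the 7 was at most 1.1e-05 (edgeR).

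Among the shield embryos, zp3c was the gene that differed most. Its levels were 26.9 and 15.3 CPM in wild type against 4.63 and 5.23 in null, with 14.3 and 13.1 in the maternal and 17.6 and 17.5 in the paternal null. Both null libraries lay below all 6 others, while the maternal null pair was just below wild type and the paternal null pair lay within it. The share of all genes whose null pair lay lowest is not given here. Replicate 1 of wild type was 1.75 times replicate 2. The null mean of 4.93 ± 0.43 CPM (SD, n = 2) was 23.4% of the wild-type mean of 21.1 ± 8.17 CPM (SD, n = 2). zp3c fell in null embryos, by 2.05 ± 0.21 (SE) on the log2 scale, with an adjusted p of 0.001 in the fit of every library and 0.043 in the fit of 1 sample per pair (edgeR). Under 6 other settings the log2 fold change lay between -2.11 and -2.03, with adjusted p from 4.4e-13 to 0.043, and leaving out each shield library in turn gave -2.31 to -1.73, with an adjusted p of at most 0.018.

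The levels of zp3e and zp3b were also lowest in the null libraries. For zp3e they were 49.4 and 31.4 CPM in wild type against 23.2 and 21.7 in null, with 31.3 and 27.4 in the maternal and 37.3 and 38.3 in the paternal null. For zp3b they were 55.9 and 47.0 CPM in wild type against 31.6 and 32.6 in null, with 42.9 and 43.3 in the maternal and 62.6 and 61.8 in the paternal null. The share of all genes whose null pair was lowest in this way is not given here. The paternal null libraries of zp3b were the highest of the 8. With every library fitted, both genes were lower in null embryos, zp3e with a log2 fold change of -0.80 ± 0.16 (adjusted p = 0.01) and zp3b with -0.65 ± 0.09 (adjusted p = 0.0031). In the fit of 1 sample per pair their adjusted p was 0.6 and 0.71 (edgeR), so neither is called fallen. Without null replicate 1 or null replicate 2, zp3e no longer passed, with adjusted p of 0.066 and 0.082 (edgeR).

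The other 4 genes had no called difference between null and wild type. The levels of zp3f.1 were 30.4 and 22.7 CPM in wild type against 21.9 and 24.7 in null, with 29.2 and 28.3 in the maternal and 31.9 and 35.9 in the paternal null. Those of zpax1 were 49.1 and 43.6 CPM in wild type against 42.8 and 45.4 in null, with 56.9 and 58.7 in the maternal and 50.2 and 48.8 in the paternal null. For both genes the null and wild-type libraries overlapped, and the log2 fold changes were -0.15 ± 0.13 for zp3f.1 (adjusted p = 0.39) and -0.04 ± 0.1 for zpax1 (adjusted p = 0.77, edgeR). The neighbours zp3a.1 and zp3a.2 were lowest in wild type. Levels of zp3a.1 were 27.9 and 31.1 CPM in wild type against 39.5 and 36.6 in null, with 35.7 and 37.3 in the maternal and 32.1 and 32.7 in the paternal null. Levels of zp3a.2 were 39.0 and 37.9 CPM in wild type against 45.2 and 45.7 in null, with 45.5 and 47.0 in the maternal and 48.2 and 47.7 in the paternal null. The wild-type pair lay below all other shield libraries for both genes, but the log2 fold changes in null, 0.39 ± 0.15 for zp3a.1 (adjusted p = 0.074) and 0.27 ± 0.11 for zp3a.2 (adjusted p = 0.088, edgeR), did not pass. Under 1 of 6 other settings zp3a.1 passed as higher in null, and zp3a.2 passed under 0. The share of all genes whose wild-type pair lay lowest is not given here.

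**Figure D2:**
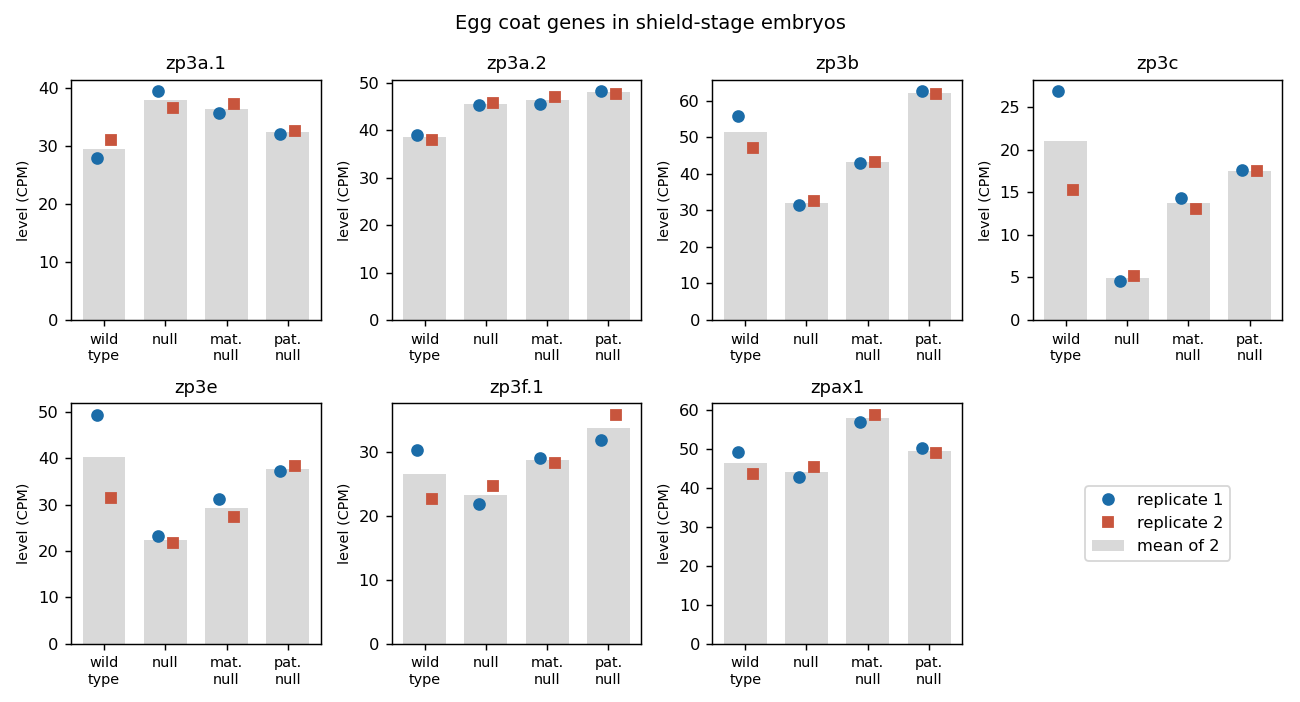
Level of each egg coat gene in the 8 shield libraries, in CPM on a linear axis from 0; each point is a library, marked by replicate number, and the bar is the mean of its group. The null libraries of zp3c (4.63 and 5.23 CPM) lie apart below the others, while the groups of zp3f.1 and zpax1 overlap between null and wild type.

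Over all genes tested, 36.2% were called between null and wild type with every library fitted, 16.8% as higher and 19.4% as lower, and 2.85% were lower in both fits. Of the 7 egg coat genes, 3 were lower in the fit of every library and 1, zp3c, in both; none was higher. Leaving out each shield library in turn gave log2 fold changes of -0.66 to -0.62 for zp3b and -0.99 to -0.57 for zp3e. They were 0.21 to 0.59 for zp3a.1 and 0.17 to 0.36 for zp3a.2. Without a wild-type library more of the 7 passed, in both directions, but the spread then came from near-identical pairs alone. The share of all genes called in those fits is not given here. The median log2 fold change of the 7 was -0.15, against -0.03 over all genes. Among the 7, the mean level in null ran from 23.4% of wild type for zp3c through 87.7% for zp3f.1, the median, to 129% for zp3a.1. The spread of all genes is not given here. Over the 8 shield libraries the highest level was 5.8 times the lowest for zp3c, 2.28 times for zp3e and 1.98 times for zp3b, but 1.27 times for zp3a.2. Replicate 1 of wild type exceeded replicate 2 by 1.75 times for zp3c, 1.57 times for zp3e, 1.34 times for zp3f.1 and 1.19 times for zp3b, and the ratio was 0.897 for zp3a.1. The part of the difference between the wild-type libraries in these results was not tested beyond leaving each of them out.

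In the crosses, no egg coat gene was called as different from wild type with every library fitted. Maternal null against wild type called 6.01% of all genes and paternal null against wild type 7.02%, and both called 0 of the 7 with edgeR and 0 with DESeq2. These comparisons share the wild-type libraries with the null comparison, so their values are set side by side. For zp3c the log2 fold change was -0.57 ± 0.2 in maternal null (adjusted p = 0.15) and -0.24 ± 0.2 in paternal null (adjusted p = 0.52, edgeR). For zpax1 it was 0.35 ± 0.1 in maternal null (adjusted p = 0.088) and 0.10 ± 0.1 in paternal null (adjusted p = 0.6, edgeR). Leaving out each shield library in turn gave log2 fold changes for zp3c of -0.86 to -0.25 in maternal null and -0.50 to 0.09 in paternal null. For zpax1 they were 0.32 to 0.38 and 0.07 to 0.13. Without a wild-type library several of the 7 passed in both comparisons, but the spread then came from near-identical pairs alone. The share of all genes called in those fits is not given here.

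Between the crosses, 9.28% of all genes were called, 5.61% as lower in maternal null and 0.198% as lower there in both fits, and of the egg coat genes zp3b was lower, with a log2 fold change of -0.50 ± 0.09 and an adjusted p of 0.023 (edgeR). This difference of 42.9 and 43.3 CPM from 62.6 and 61.8 CPM had an adjusted p of 1.0 in the fit of 1 sample per pair and 0.053 with the replicate number as a block. Leaving out each shield library in turn gave log2 fold changes of -0.53 to -0.50. The difference did not pass without any of the null, maternal null or paternal null libraries. Without a wild-type library more of the 7 passed, but the spread then came from near-identical pairs alone. The share of all genes called in those fits is not given here.

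**Figure D3:**
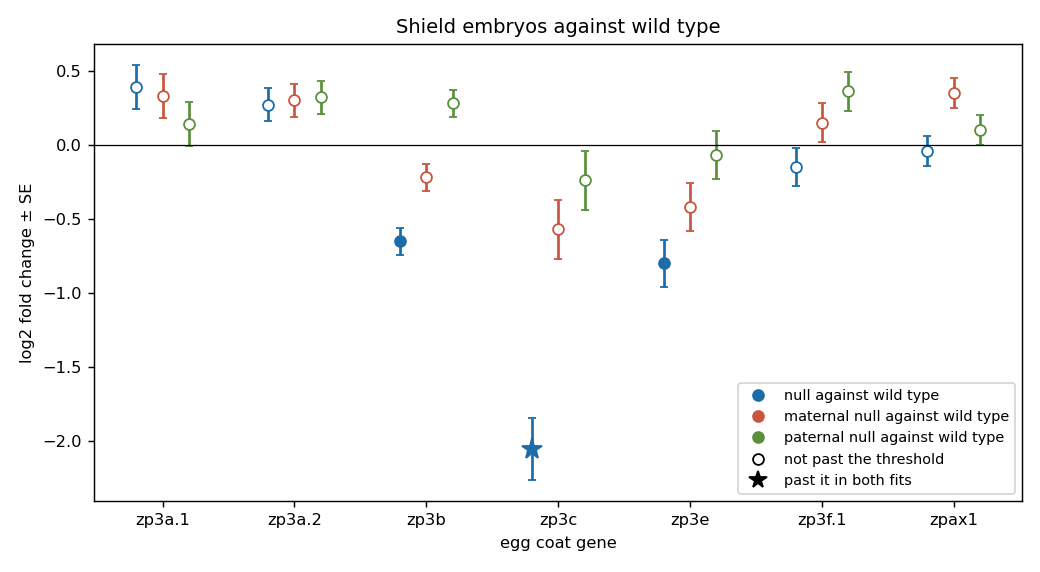
Log2 fold change of each egg coat gene in null, maternal null and paternal null against wild-type shield embryos, with bars of 1 standard error from edgeR's fit of every library; filled symbols passed the threshold there and the star in both fits. For zp3c null stands at -2.05, maternal null at -0.57 and paternal null at -0.24, and zp3a.1 and zp3a.2 lie above 0 in all 3 comparisons.

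Set against the crosses, the null embryos again had the lowest levels of zp3c and zp3b. Null against maternal null called 32.0% of all genes, 17.5% as lower and 0.866% as lower in both fits, and 3 egg coat genes were lower in the fit of every library. The log2 fold changes were -1.47 ± 0.21 for zp3c (adjusted p = 0.0041), -0.42 ± 0.09 for zp3b (adjusted p = 0.017) and -0.39 ± 0.1 for zpax1 (adjusted p = 0.025, edgeR). Null against paternal null called 36.1% of all genes, 19.4% as lower and 1.45% as lower in both fits, and 4 egg coat genes were lower. These were zp3c (-1.81 ± 0.21, adjusted p = 0.0019), zp3b (-0.93 ± 0.09, adjusted p = 0.0013), zp3e (-0.73 ± 0.16, adjusted p = 0.015) and zp3f.1 (-0.51 ± 0.13, adjusted p = 0.022, edgeR). None of these 7 calls held in the fit of 1 sample per pair, where the adjusted p of zp3c was 0.48 against maternal null and 0.21 against paternal null (edgeR). Of 6 other settings, among them 1 sample per pair, zpax1 passed against maternal null in 4, and zp3b and zp3c each in 5. Leaving out each shield library in turn gave zp3c log2 fold changes of -1.56 to -1.39 against maternal null and -1.90 to -1.72 against paternal null. Against maternal null, fewer of the 7 passed without a null or cross library. More passed without a wild-type library, where the spread came from near-identical pairs alone. The share of all genes called there is not given here. Against paternal null, fewer passed without a null or paternal null library.

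Whether the mother's genotype went with the level was asked next: embryos of null mothers, null and maternal null together, were compared with those of wild-type mothers, paternal null and wild type. Of all genes 26.1% were called, 14.3% as lower and 1.80% as lower in both fits, and 3 of the 7 egg coat genes were lower: zp3c with a log2 fold change of -1.19 ± 0.14 (adjusted p = 0.0026), zp3b with -0.57 ± 0.07 (adjusted p = 0.0021) and zp3e with -0.57 ± 0.11 (adjusted p = 0.014, edgeR). For zp3b the 4 libraries of null mothers had 31.6 to 43.3 CPM and the 4 of wild-type mothers 47.0 to 62.6 CPM. In the same order the ranges were 4.63 to 14.3 and 15.3 to 26.9 CPM for zp3c. For zp3e they were 21.7 to 31.3 and 31.4 to 49.4 CPM. The share of all genes with ranges apart in this way is not given here. In the fit of 1 sample per pair the adjusted p was 0.22 for zp3c, 0.83 for zp3b and 0.84 for zp3e (edgeR). Leaving out each shield library in turn gave log2 fold changes of -1.34 to -1.04 for zp3c, -0.59 to -0.56 for zp3b and -0.69 to -0.46 for zp3e. Without a wild-type library more of the 7 passed, in both directions, but the spread then came from near-identical pairs alone. The share of all genes called in those fits is not given here. zp3e did not pass without maternal null replicate 2 or any 1 of the null and paternal null libraries (adjusted p from 0.055 to 0.072, edgeR), which left 2 genes lower.

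The effect of the father's genotype on the effect of the mother's was tested as an interaction, that is, whether null embryos departed from the sum of the log2 differences of the 2 crosses from wild type. Of all genes 17.0% were called, 10.2% as lower and 0.219% as lower in both fits, and 3 of the 7 egg coat genes were lower in null than that sum: zp3c by a log2 value of -1.23 ± 0.29 (adjusted p = 0.033), zp3b by -0.71 ± 0.13 (adjusted p = 0.019) and zp3f.1 by -0.67 ± 0.18 (adjusted p = 0.05 when rounded, edgeR). The median over the 7 was -0.49, against -0.03 over all genes. In the fit of 1 sample per pair the adjusted p of all 3 was 1.0 (edgeR). zp3f.1 also did not pass with the replicate block (adjusted p = 0.082), with DESeq2 (0.061), without the low-count filter (0.05 when rounded) or with library totals (0.11), and zp3c did not with library totals (0.074). Leaving out each shield library in turn gave log2 values of -1.57 to -0.96 for zp3c, -0.73 to -0.67 for zp3b and -0.78 to -0.56 for zp3f.1. No egg coat gene passed without any 1 of the null, maternal null or paternal null libraries. Without a wild-type library more passed, but the spread then came from near-identical pairs alone. The share of all genes called in those fits is not given here.

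The share of each gene among the counts of the 7, which needs no scaling between libraries, was also compared between groups. In wild type zp3c gave 9.64% and 6.69% of them, against 2.22% and 2.47% in null, with 5.6% and 5.14% in the maternal and 6.29% and 6.2% in the paternal null. In the injected sphere embryos it gave 13.9% and 13.9%, and 2.84% and 2.85% of those in the libraries labelled sperm, close to the null shield embryos. The Wilson intervals of these shares reached at most 0.881 percentage points to each side. The share of zpax1 was 30.0% and 28.9% in the libraries labelled sperm, 11.4% and 11.5% in the injected embryos, and 17.3% to 23.0% in the shield libraries. Counts of zp3c were 0.102 and 0.114 times those of zp3a.2 in null shield embryos, 0.689 and 0.404 times in wild type, 1.86 and 1.82 times in the injected embryos and 0.267 and 0.269 times in the libraries labelled sperm. Between the neighbours, zp3a.1 over zp3a.2 was 0.666 to 0.875 in the shield libraries, 1.17 and 1.13 in the injected embryos and 1.54 and 1.68 in those labelled sperm. The ratio of zp3f.1 to its neighbour zp3f.2 was 3.91 to 5.05, 5.96 and 5.71, and 8.48 and 9.32 in the same order.

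**Figure D4:**
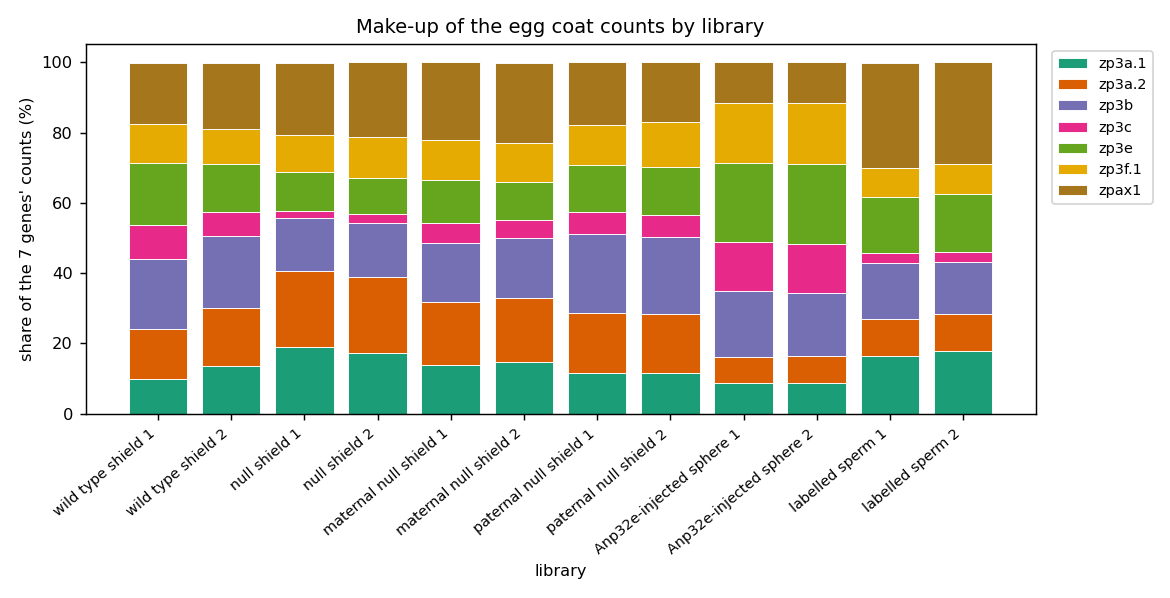
Share of each of the 7 genes in their summed counts, in percent, for each of the 12 libraries as a stacked bar. The zp3c share is smallest in null shield embryos (2.22% and 2.47%) and in the libraries labelled sperm (2.84% and 2.85%), and largest in the injected sphere embryos (13.9% and 13.9%).

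In the injected sphere embryos all 7 transcripts were more abundant than in wild-type shield embryos. Levels were 136 and 135 CPM for zp3c, 6.43 times the wild-type shield mean. For zp3f.1 they were 169 and 169 CPM, or 6.35 times, and for zp3e 217 and 221 CPM, or 5.42 times. For zp3b they were 183 and 175 CPM, or 3.48 times. These 4 genes stood furthest above the wild-type shield mean. The others had 85.6 and 84.3 CPM for zp3a.1 (2.88 times), 112 and 112 for zpax1 (2.41 times), and 73.0 and 74.5 for zp3a.2 (1.92 times).

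Of all genes tested, 63.7% were called between injected sphere and wild-type shield embryos, 31.6% as higher, and 16.8% were higher in both fits. All 7 egg coat genes were higher in the fit of every library and 4 rose in both fits. The log2 fold changes of these 4 were 2.30 ± 0.18 for zp3c (adjusted p = 3.5e-06, and 0.0024 with 1 sample per pair), 2.27 ± 0.16 for zp3f.1 (1.8e-06 and 0.0024), 2.05 ± 0.17 for zp3e (5e-06 and 0.0044) and 1.40 ± 0.12 for zp3b (6.6e-06 and 0.018, edgeR). For zp3a.1 it was 1.12 ± 0.18, for zpax1 0.87 ± 0.14 and for zp3a.2 0.53 ± 0.14, and with 1 sample per pair their adjusted p was 0.058, 0.11 and 0.29 (edgeR). The median of the 7 was 1.40, against -0.01 over all genes; scaling to library totals shifted the median of all genes by 0.38, and log2 fold changes are relative to the scaling of the fit while the ratios of CPM are not. Both fits took in the libraries labelled sperm. Leaving these out of the fit of every library gave 7 calls as well. The fit of 1 sample per pair was not repeated without them.

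**Figure D5:**
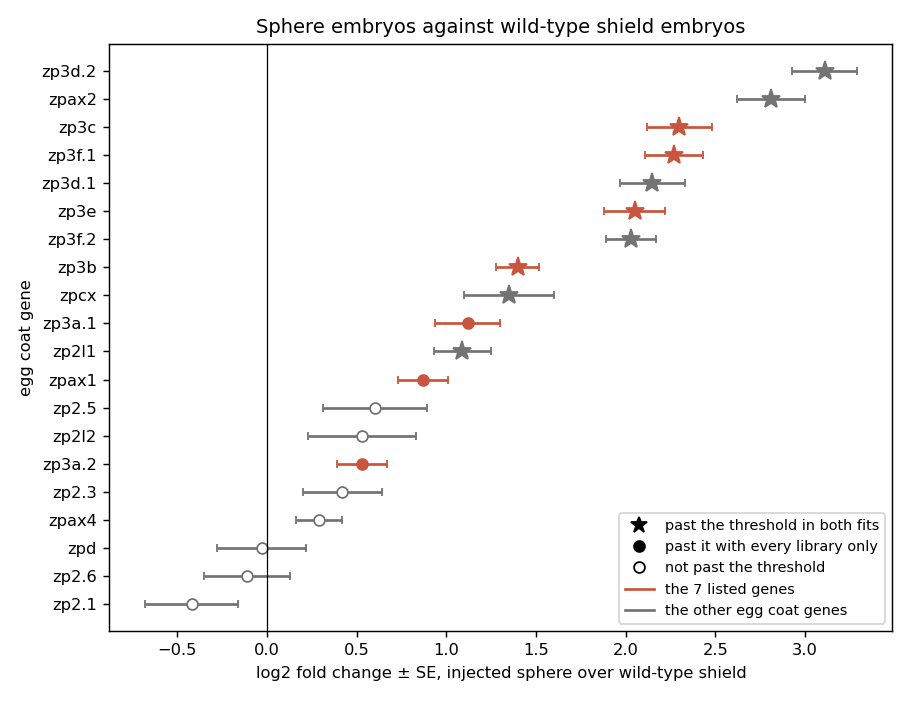
Log2 fold change of the 7 listed egg coat genes (red) and the other 13 (grey) in injected sphere embryos against wild-type shield embryos, with bars of 1 standard error from edgeR's fit of every library; stars passed the threshold in both fits, filled circles with every library alone and open circles in neither. The 7 run from 0.53 for zp3a.2 to 2.30 for zp3c, all above 0.

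The other 13 egg coat genes were counted in the same comparisons, of which those that called more than 1 of them are given. With every library fitted, 4 of them were lower in null than in wild type, 0 were higher, 9 did not pass and 0 passed in both fits, with a median log2 fold change of -0.26; of all genes 19.4% were lower. The 4 were zpax2 (-1.16 ± 0.24, adjusted p = 0.011), zpd (-1.12 ± 0.29, adjusted p = 0.025), zp2.6 (-1.0 ± 0.16, adjusted p = 0.0045) and zp3d.1 (-0.87 ± 0.21, adjusted p = 0.02, edgeR), named after their values were seen. Levels in wild type and null were 10.5 and 5.55 against 3.54 and 3.44 CPM for zpax2, and 23.3 and 12.5 against 9.49 and 9.48 CPM for zp3d.1. The 3 with the highest mean level over all 12 libraries, a rank that the libraries labelled sperm dominate, were zpax4, zp2l1 and zp2.3, and none of these passed. zpax4 had 41.5 and 39.5 CPM in wild type and 46.3 and 43.6 in null, with a log2 fold change of 0.18 ± 0.11 (adjusted p = 0.24, edgeR). zp2l1 had 14.0 and 12.4 CPM and 14.9 and 13.3, and zp2.3 had 16.5 and 19.5 and 19.3 and 18.9; both pairs of groups overlapped. zp2.3 overlaps 3 other zp2 genes of the table, so its counts may include theirs. Of the genes lower in null, zp2.6 overlaps zp2.3 and zp2.1, and zp3d.1 overlaps si:ch211-225p5.12, so the same limit holds for them. Against paternal null, 4 of the 13 were lower in null and 1, zpcx, was higher, where 36.1% of all genes were called. Embryos of null mothers likewise had 4 lower and 1, zpcx, higher, where 26.1% were called. None of these passed in both fits. Mean levels of zpcx, which overlaps tmem54a, were 22.0 CPM in null, 21.4 in maternal null, 14.7 in wild type and 12.3 in paternal null. In injected sphere embryos 6 of the 13 rose in both fits and 0 were lower, with a median of 0.60, where 16.8% of all genes were higher in both fits. In the libraries labelled sperm 13 of 13 rose against null, with a median of 6.34, where 30.7% of all genes were higher in both fits.

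Genes listed as oocyte regulators were measured beside the egg coat genes. The name is loose, as the list also holds genes such as mcm3l and cldnd whose part in the egg was not examined. It was chosen with earlier results of these data known, so its counts are not independent support. The 17 measured members summed to 326 and 186 CPM in wild type against 87.7 and 85.8 in null. They summed to 249 and 251 in the maternal null, 368 and 363 in the paternal null, and 2145 and 2149 in injected sphere embryos. The null libraries were lowest, as for zp3c. With every library fitted, 14 of 17 were lower in null than in wild type and 0 higher, with a median log2 fold change of -1.08, where 19.4% of all genes were lower. In both fits, in which 2.85% of all genes were lower, 3 fell: wee2, a kinase of the oocyte cell cycle, mcm3l, a relative of a replication helicase subunit, and cldnd, a claudin. In the injected embryos 16 of 17 were higher and 15 rose in both fits, against 31.6% and 16.8% of all genes. figla, whose mouse counterpart activates the zona pellucida genes in oocytes, was low in shield embryos, with 0.995 and 0.296 CPM in wild type against 0.623 and 0.707 in null, and its libraries overlapped there (log2 fold change -0.04 ± 0.5, adjusted p = 0.95, edgeR). It had 5.94 and 6.09 CPM in injected sphere embryos, where it rose with a log2 fold change of 2.68 ± 0.35 (adjusted p = 8.5e-05, edgeR), and 31.7 and 42.5 CPM in the libraries labelled sperm.

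Markers of shield embryos differed between the same groups. The 10 genes summed to 4436 and 4137 CPM in wild type against 6702 and 6678 in null, with 4800.4 and 4842 in the maternal and 6876 and 6886 in the paternal null, and 1359 and 1371 in injected sphere embryos. Their sum was thus high in null and in paternal null embryos, whereas zp3c was lowest in null. Much of the sum came from krt4, with a mean of 974 CPM in wild type, 2869 in null and 3536 in paternal null. With every library fitted, 3 of the 10 were higher in null than in wild type and 3 were lower. Of all genes, 16.8% were higher and 19.4% lower. Liver markers, of which 5 were measured, summed to 25.8 and 42.9 CPM in wild type, 194 and 193 in null, and 53.6 to 64.4 in the crosses. The sum is carried by tfa (126 and 125 CPM in null) and apoa1a (68.2 and 67.7 CPM), while vtg1 was at 0 and fabp10a and fgb were at most 0.424 CPM in null. The list name is therefore loose, and the sum is not read as a sign of liver. The part of any of these lists in the egg coat results was not tested.

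Of 6 egg surface and coat partners, 4 were in the table. vmo1a, named for a protein of the vitelline membrane of bird eggs, had 5.09 and 0.961 CPM in wild type and no count in either null library, where a count of 0 allows up to 0.117 and 0.141 CPM. It fell in null embryos (adjusted p = 0.0078, and 3.6e-07 with 1 sample per pair, edgeR). In the crosses vmo1a had 1.24 to 1.27 CPM in maternal null and 1.13 to 1.23 CPM in paternal null. It had only 0.0435 to 0.125 CPM in the injected sphere embryos and 0.021 to 0.0258 CPM in the libraries labelled sperm. Its pattern thus differed from the egg coat genes, which were more abundant in both of those groups than in shield embryos. Means of cd9a and vmo1b in the shield groups were at most 2.75 and 0.486 CPM, and neither was called between null and wild type. Among shield embryos cd9b, a relative of the tetraspanin of the egg surface that sperm fusion needs in mouse, was highest in paternal null. It had 109 to 117 CPM there and 67.7 to 69.6 CPM in maternal null. In wild type cd9b had 72.0 and 54.3 CPM, against 89.1 and 87.3 in null. It was higher in null in the fit of every library, with a log2 fold change of 0.52 ± 0.11 (adjusted p = 0.011), and its adjusted p was 0.79 with 1 sample per pair (edgeR).

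Across the 6 group levels, the gene outside the list whose pattern was most like zp3f.1 was its neighbour zp3f.2, with a Pearson r of 0.9996 on log2(CPM + 0.5). For zpax1 it was zp2l1 (r = 0.9997) and for zp3a.2 it was zp2.3 (r = 0.9994), so for 3 of the 7 the likest gene was another egg coat gene. For the other 4 it was not: dscc1 for zp3a.1 (r = 0.9996), dgka for zp3b (r = 0.9996), si:dkey-286j15.3 for zp3c (r = 0.9998) and polr2m for zp3e (r = 0.9995). With 6 points, of which the libraries labelled sperm stand far from the rest, such values were common: between 121 and 228 of 18839 genes compared had an r over 0.99 with a given member. They are descriptions and carry no test.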

How the data were processed

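Per the table, the authors deposited read counts per gene without normalization; Novoalign 2.8 and DESeq2 are named in the submitters' processing notes, and the read counter and its strand setting are not stated there. Genes with a highest count under 10 were left out of the table, as its values show. Symbols were matched by Ensembl identifier (20669 of 22737 genes). Counts were fitted with edgeR 4.0.16 in R 4.3.3 (quasi-likelihood test, robust, TMM scaling, low-count filter by group, Benjamini-Hochberg over all genes tested, threshold 0.05): 19166 genes in 8 shield libraries and 21251 in all 12. Libraries of a group with chi-square per degree of freedom under 2 over genes of at least 20 counts were summed for the second fit. Alternatives were DESeq2 1.42.0, RLE scaling, no filter, a replicate block, leaving out each library and, added after seeing the data, library totals and a fit without the libraries labelled sperm. The fit was tested on simulated counts. The genes and lists were chosen with earlier results of these data known; every listed egg coat gene is named, and of the other 13 those called in both fits or, failing that, the 3 of highest mean level. Transcript lengths and sequences were not used here.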

Additional observations from a re-analysis of the deposited data

Results flagged for a closer look

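Differences of the mother's effect between fathers, tested as the interaction of the mother's and father's genotype in edgeR's fit of every library, passed the threshold for 3 of the 7 genes. Of all genes 17.0% passed, 10.2% as lower. The log2 value was -1.23 for zp3c, -0.71 for zp3b and -0.67 for zp3f.1, each lower in null embryos than the sum of the 2 crosses. None passed with 1 sample per near-identical pair, where the adjusted p was 1.0 for each (edgeR). zp3f.1 also did not pass with the replicate block (adjusted p = 0.082, edgeR).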

How the results depend on the processing

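With 1 sample per near-identical pair the number of the 7 genes called fell to 1 from 3 in null against wild type, to 0 from 1 between the crosses, to 0 from 3 against maternal null, to 0 from 4 against paternal null, to 0 from 3 for mothers, to 0 from 3 for the interaction and to 4 from 7 in injected against wild type. The shares of all genes called with every library and in both fits are given with each of these comparisons above. Scaling to library totals, added after seeing the data, gave 1 call for the interaction. In the other direction, zp3a.1 passed as higher under 1 of 6 other settings in null against wild type. For mothers it also passed as higher under 1 of 6.

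The replicate numbers did not pair the libraries: deviations of same-numbered libraries correlated between -0.02 and 0.08 over 15 pairs of groups. The replicate block gave 0 calls between the crosses and changed no other count by more than 1.5 times.

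Leaving out each library in turn gave 2 to 6 calls in null against wild type, 0 to 6 in maternal null against wild type, 0 to 7 in paternal null against wild type, 0 to 6 between the crosses, 1 to 5 against maternal null, 2 to 6 against paternal null, 2 to 7 for mothers and 0 to 6 for the interaction, and 7 in each of the 2 other comparisons. The highest counts came without a wild-type library, where by construction only near-identical pairs gave the spread among shield embryos. The share of all genes called in those fits is not given here, so these counts are no result about the egg coat genes. Signs changed for genes near 0: log2 fold changes ranged from -0.08 to 0.00 for zpax1 in null against wild type, from -0.05 to 0.33 for zp3a.1, -0.50 to 0.09 for zp3c and -0.27 to 0.16 for zp3e in paternal null against wild type, and from -0.25 to 0.11 for zp3a.1 in the interaction. Having 2 libraries a group limits every test, and zp3c in null rests on 4.63 and 5.23 CPM.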
